A study of Mus musculus with 8 samples.

Results

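Interferon-stimulated genes are transcribed when a cell senses interferon, and 40 of them were followed here by name through 8 RNA-seq libraries of Langerhans cell (LC)-like cells grown from mouse bone marrow (BM). All 40 were found among the 24421 genes of the count table, and all 40 reached 0.5 CPM or more (counts scaled to the size of the library) in 2 or more libraries, the level above which 12424 genes of the table were tested. They were divided by what they encode into 34 antiviral genes typical of type I interferon and 6 GTPases typical of IFN-γ (Gbp2, Gbp3, Igtp, Irgm1, Irgm2 and Ifi47). No interferon was added to any culture, so the name describes the genes and not a treatment. ∆Rara CD11c cells (Rara KO, 2 libraries) came from mice in which Cre, driven by the CD11c promoter together with GFP, removes a floxed exon of Rara, the gene of retinoic acid receptor α (RARα). They were set against WT 1 and WT 2. RA cells (2 libraries) were wild type cells cultured with all-trans retinoic acid, at 1 nM by the sample labels, while the text of the study gives a higher dose. They were set against the 2 libraries named Control, which are the remaining wild type libraries. The study used as WT both plain C57BL/6 mice and mice with the floxed allele or the Cre-GFP transgene alone, and the sources do not say which gave these libraries, so a WT library may carry the transgene or the floxed allele alone. Every group shared the C57BL6 strain given in the labels, the culture with GM-CSF (20 ng/ml) and TGF-β1 (10 ng/ml) for 3 to 5 days by the labels (3 days by the study's text, with charcoal-treated serum) in medium with 10% FBS, and the magnetic selection of CD11c+ cells. The study's text says that both sexes were used and pooled without naming the sex behind each library, and the age of these mice was not found. It calls the samples of a group independent, while neither it nor the labels say whether these were separate animals or separate cultures, so each p-value measures the spread between these libraries.

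Type I interferons (IFN-α and IFN-β) bind the receptor IFNAR, and the kinases JAK1 and TYK2 then activate a complex that holds STAT2 and IRF9 and binds the interferon-stimulated response element (ISRE) of their target genes. IFN-γ acts through its own receptor, JAK1 and JAK2 and a factor that binds a GAS element, and the guanylate-binding proteins and immunity-related GTPases that it induces attack the vacuoles of intracellular parasites and bacteria. Many of these genes answer to both kinds of interferon, and dendritic cells keep a low level of the antiviral set without infection.

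The promoters of both kinds of genes carried the response element. The ISRE core was searched as GAAANNGAAA on both strands of the RefSeq promoters of build GRCm38.p6, from 250 bases before to 50 bases after each start, and 30 of the 40 genes had a promoter there. The core was present for 18 of these 30 genes (60.0%), against 3.99% of all genes with a promoter in that table. It stood in 13 of 24 matched antiviral genes and in 5 of 6 GTPases, all but Ifi47. A window of 30 bases is shown for 5 antiviral genes and 4 GTPases because the comparison below sets these groups side by side. Capitals mark every base of a core, or of its reverse complement, within the window, and the sequences read 5′ to 3′ on the strand of the gene.
Isg15 (chr4:156200871-156200900, minus strand): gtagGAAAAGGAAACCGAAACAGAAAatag
Ifit1 (chr19:34640775-34640804, plus strand): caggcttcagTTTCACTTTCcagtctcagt
Ifit3 (chr19:34583363-34583392, plus strand): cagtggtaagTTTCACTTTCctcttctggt
Oas3 (chr5:120777715-120777744, minus strand): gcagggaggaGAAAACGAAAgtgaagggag
Rsad2 (chr12:26456553-26456582, minus strand): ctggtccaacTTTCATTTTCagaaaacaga
Gbp2 (chr3:142620594-142620623, plus strand): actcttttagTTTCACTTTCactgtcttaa
Igtp (chr11:58199512-58199541, plus strand): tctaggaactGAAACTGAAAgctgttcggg
Irgm1 (chr11:48871428-48871457, minus strand): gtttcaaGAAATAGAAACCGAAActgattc
Irgm2 (chr11:58214903-58214932, plus strand): tccaggaactGAAACTGAAAgctgttcggg
Isg15 held 3 overlapping cores, and Igtp and Irgm2, neighbours on chromosome 11, had nearly the same window. The first base of the match lay between 30 (Irgm1) and 156 (Ifit3) bases before the start. A GAS core (TTCNNNGAA) was present for 8 of the 30 genes, against 9.55% of all genes. A retinoic acid response element, searched as a direct repeat of AGGTCA with any 5 bases between, was in none of the 30 promoters and in 0.0111% of all genes, which says only that these letters are not in these windows.

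Between 26325627 and 76077813 read pairs per library were assigned to genes. Rara, checked first as the targeted gene, had 62.1 and 93.2 CPM in ∆Rara CD11c libraries against 104 and 127 CPM in WT 1 and WT 2 (log2 fold change -0.57, adjusted p = 0.0521, edgeR's quasi-likelihood test), with counts over all exons and not only the floxed one. The LC marker Cd207 (langerin) was under 0.6 CPM in the ∆Rara CD11c and RA libraries against 18.5 to 97.7 CPM in WT and Control libraries. By this marker the LC label held for untreated wild type cells only. The LC markers Cd207, Epcam, Cdh1 and Runx3 together summed to 968 to 1172 CPM in ∆Rara CD11c libraries against 2052 to 2122 CPM in WT libraries. Their sum was 392 to 556 CPM in RA libraries against 2241 to 2277 CPM in Control libraries. The dendritic cell gene Itgax (CD11c) was present in every library, at 504 CPM or more. Xist, transcribed in female cells, had 91.1 and 253 CPM in WT 1 and WT 2 and at most 1.08 CPM in the other 6 libraries, so sex and genotype cannot be told apart in the ∆Rara CD11c comparison. By the deposited mapping summary, 3′ UTRs held 48.8% and 46.8% of the reads in ∆Rara CD11c libraries, 39.2% and 36.0% in WT 1 and WT 2, and 31.0% to 34.2% in RA and Control libraries. As these are bulk samples, fewer cells of a type and less RNA per cell cannot be told apart.

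All 40 genes were transcribed in untreated wild type cells. Per kilobase of exon, mean levels in Control cells spanned 2.73 RPKM for Cmpk2, a mitochondrial nucleotide kinase, to 242 RPKM for Bst2 (tetherin), which holds budding virus at the cell surface. Ifi27l2a followed Bst2 at 160.0 RPKM and Oas1a was next at 69.5 RPKM. In RA cells the lowest was Ifi44 at 0.458 RPKM and the highest again Bst2 at 143 RPKM.

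**Figure D1:**
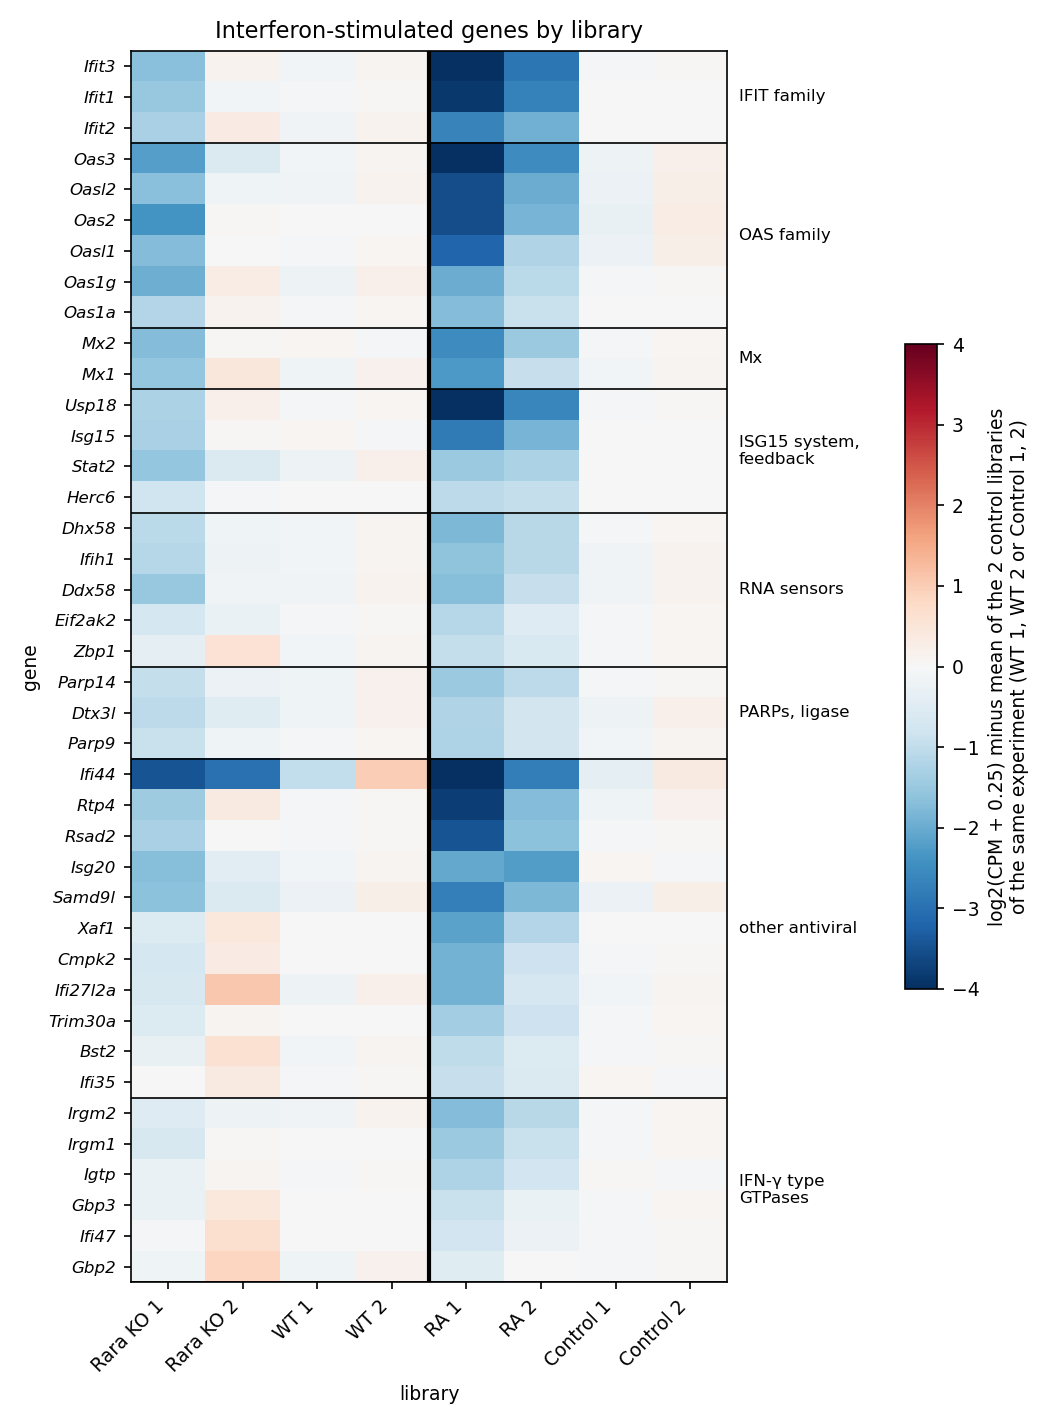
Level of the 40 genes in each library, as log2(CPM + 0.25) minus the mean of the 2 control libraries of the same experiment, with rows grouped by role and columns by library. Blue is lower: RA 1 and RA 2 are blue in nearly every row, ∆Rara CD11c library 1 (Rara KO 1) is blue in most antiviral rows, and Rara KO 2 is near its controls.

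RA lowered most of the set. In RA cells 31 of the 40 genes fell against Control cells and none rose, where 19.3% of all genes tested fell and 15.2% rose (edgeR's quasi-likelihood test, adjusted p under 0.05). Without adjustment 36 genes were lower and 0 higher, and DESeq2 called 32 lower and 0 higher. Both RA libraries were below both Control libraries for 39 of the 40 genes, all but Gbp2, as they were for 38.1% of all genes tested. The median log2 fold change was -1.39 over the 40 genes and -0.01 over all genes tested. The 31 genes that fell did so by a median of 2.68-fold, with log2 fold changes between -3.67 and -0.74.

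The IFIT genes fell furthest as a family, and the product of Ifit1 binds viral RNA that lacks the host's cap methylation. Ifit3 had 0.762 and 2.21 CPM in RA cells, against 17.6 and 18.6 CPM in Control cells, a log2 fold change of -3.60 (SE 0.63, adjusted p = 0.00352, with edgeR's quasi-likelihood test here and for every adjusted p below). Ifit1 had 1.62 and 3.92 CPM in RA cells, against 26.9 and 27.3 CPM in Control cells (log2 fold change -3.28, SE 0.50, adjusted p = 0.00184). Ifit2 had 4.85 and 8.22 CPM in RA cells, against 31.9 and 32.4 CPM in Control cells (-2.30, SE 0.47, adjusted p = 0.00743). All 3 genes lie in a cluster on chromosome 19, in mm10 between 34550694 and 34650009, and in each the Control libraries lay close together while RA 2 was higher than RA 1.

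Enzymatically active oligoadenylate synthetases make the second messenger that switches on RNase L, which cuts viral and cellular RNA. Of 6 genes of the OAS family, with the OAS-like genes Oasl1 and Oasl2 included, 4 fell with RA and the family median was -2.23 on the log2 scale. Oas3 had 8.26 and 23.6 CPM in RA cells, against 121 and 157 CPM in Control cells (-3.12, SE 0.60, adjusted p = 0.00543). Oasl2 had 17.0 and 51.5 CPM in RA cells, against 171 and 241 CPM in Control cells (-2.59, SE 0.59, adjusted p = 0.0111). In both, RA 2 was well above RA 1, and neither reached the lower Control library. Oas2 had 5.29 and 17.6 CPM in RA cells, against 52.5 and 78.3 CPM in Control cells (-2.51, SE 0.75, adjusted p = 0.0332). Oas1a fell less (-1.24, adjusted p = 0.0425), and Oas1g and Oasl1, at -1.47 and -1.96, did not pass the test (adjusted p = 0.0923 and 0.0583). OAS genes, like the IFIT and Irgm genes, are close copies, and pairs mapping equally well to several copies were left out of the authors' counts, so a split between copies is uncertain.

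ISG15 is a ubiquitin-like modifier, USP18 removes it and also blocks IFNAR, HERC6 attaches it in the mouse, and STAT2 is the signal carrier of type I interferon. All 4 fell with RA. Usp18 had 2.75 and 9.44 CPM in RA cells, against 57.2 and 60.5 CPM in Control cells (-3.27, SE 0.59, adjusted p = 0.00428). Isg15 had 4.99 and 10.0 CPM in RA cells, against 36.9 and 37.2 CPM in Control cells (-2.30, SE 0.44, adjusted p = 0.00536). Stat2 had 67.3 and 78.4 CPM in RA cells, against 191 and 189.9 CPM in Control cells (-1.39, SE 0.28, adjusted p = 0.00691). Herc6 fell by 1.01 on the log2 scale (adjusted p = 0.00548), so the modifier and the enzyme that removes it fell further in value than the ligase or the signal carrier.

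Among the other antiviral genes, 9 of 11 fell. Ifi44, an interferon-induced cytoplasmic protein, had 0.441 and 2.22 CPM in RA cells, against 12.8 and 21.6 CPM in Control cells (-3.67, SE 0.79, adjusted p = 0.00908), the most negative value of the 40 genes. Rtp4, a chaperone of G protein-coupled receptors, had 4.15 and 17.9 CPM in RA cells, against 52.9 and 67.0 CPM in Control cells (-2.44, SE 0.69, adjusted p = 0.0275). Rsad2 (viperin) makes a nucleotide that stops viral RNA synthesis. It had 0.802 and 3.47 CPM in RA cells, against 10.9 and 11.7 CPM in Control cells (-2.40, SE 0.60, adjusted p = 0.0169). Isg20, an RNA exonuclease, had 3.43 and 2.92 CPM in RA cells, against 15.6 and 14.1 CPM in Control cells (-2.23, SE 0.36, adjusted p = 0.00244). It was the single gene of the 40 for which RA 1 was above RA 2. Samd9l, Xaf1, Cmpk2, Trim30a and Ifi35 fell by between 2.22 and 0.74 on the log2 scale, while Bst2 (-0.76, adjusted p = 0.0609) and Ifi27l2a (-1.18, adjusted p = 0.127) missed the threshold with both RA libraries below both Control libraries.

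The RNA sensors fell by less. Ifih1 (MDA5), Ddx58 (RIG-I) and Dhx58 (LGP2) detect viral RNA in the cytosol, Eif2ak2 (PKR) stops translation when it binds double-stranded RNA, and Zbp1 senses Z-form nucleic acid. Of these 5 genes 4 fell, with log2 fold changes between -1.42 for Dhx58 and -0.80 for Eif2ak2, and Zbp1, at -0.78, missed the threshold (adjusted p = 0.0605). Parp9, Parp14 and the ubiquitin ligase gene Dtx3l, whose products act together in the antiviral response and are encoded in a cluster on chromosome 16, all fell, by 0.96, 1.26 and 0.98. Parp9 and Dtx3l overlap on opposite strands, which the authors' counting kept apart by strand. Of the Mx genes, Mx2 fell (-2.01, adjusted p = 0.025), and Mx1 had the log2 value -1.48 (adjusted p = 0.0962).

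The GTPases of the IFN-γ type had smaller values than the antiviral genes. With RA 3 of 6 fell and none rose, with a median log2 fold change of -0.76, against 28 of 34 and a median of -1.48 for the antiviral genes. Without Ifi47 the figures were 3 of 5 and -0.98. Irgm2 had 11.97 and 18.7 CPM in RA cells, against 38.5 and 42.7 CPM in Control cells (-1.40, SE 0.21, adjusted p = 0.00181). Irgm1, which controls the other GTPases of its family and autophagy, had 29.6 and 44.4 CPM in RA cells, against 79.4 and 87.2 CPM in Control cells (-1.17, SE 0.24, adjusted p = 0.00731). Igtp (Irgm3) had 14.3 and 19.8 CPM in RA cells, against 34.6 and 32.6 CPM in Control cells (-0.98, SE 0.18, adjusted p = 0.00441). These 3 immunity-related GTPases, which regulate others of their family on host membranes, were lower in both RA libraries. Gbp2 had 16.3 and 23.1 CPM in RA cells, against 21.9 and 23.5 CPM in Control cells (-0.20, SE 0.32, adjusted p = 0.65), and the groups overlapped. Gbp3 had 20.7 and 32.1 CPM in RA cells, against 36.5 and 40.2 CPM in Control cells (-0.54, SE 0.25, adjusted p = 0.127). Ifi47 had 22.6 and 32.2 CPM in RA cells, against 37.2 and 39.3 CPM in Control cells (-0.48, SE 0.23, adjusted p = 0.146). In the guanylate-binding proteins Gbp2 and Gbp3 and in Ifi47 the test was not passed. The ranges of the groups overlapped, from -3.67 to -0.74 over the antiviral genes and from -1.40 to -0.20 over the GTPases, and no test was made between groups of genes.

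**Figure D2:**
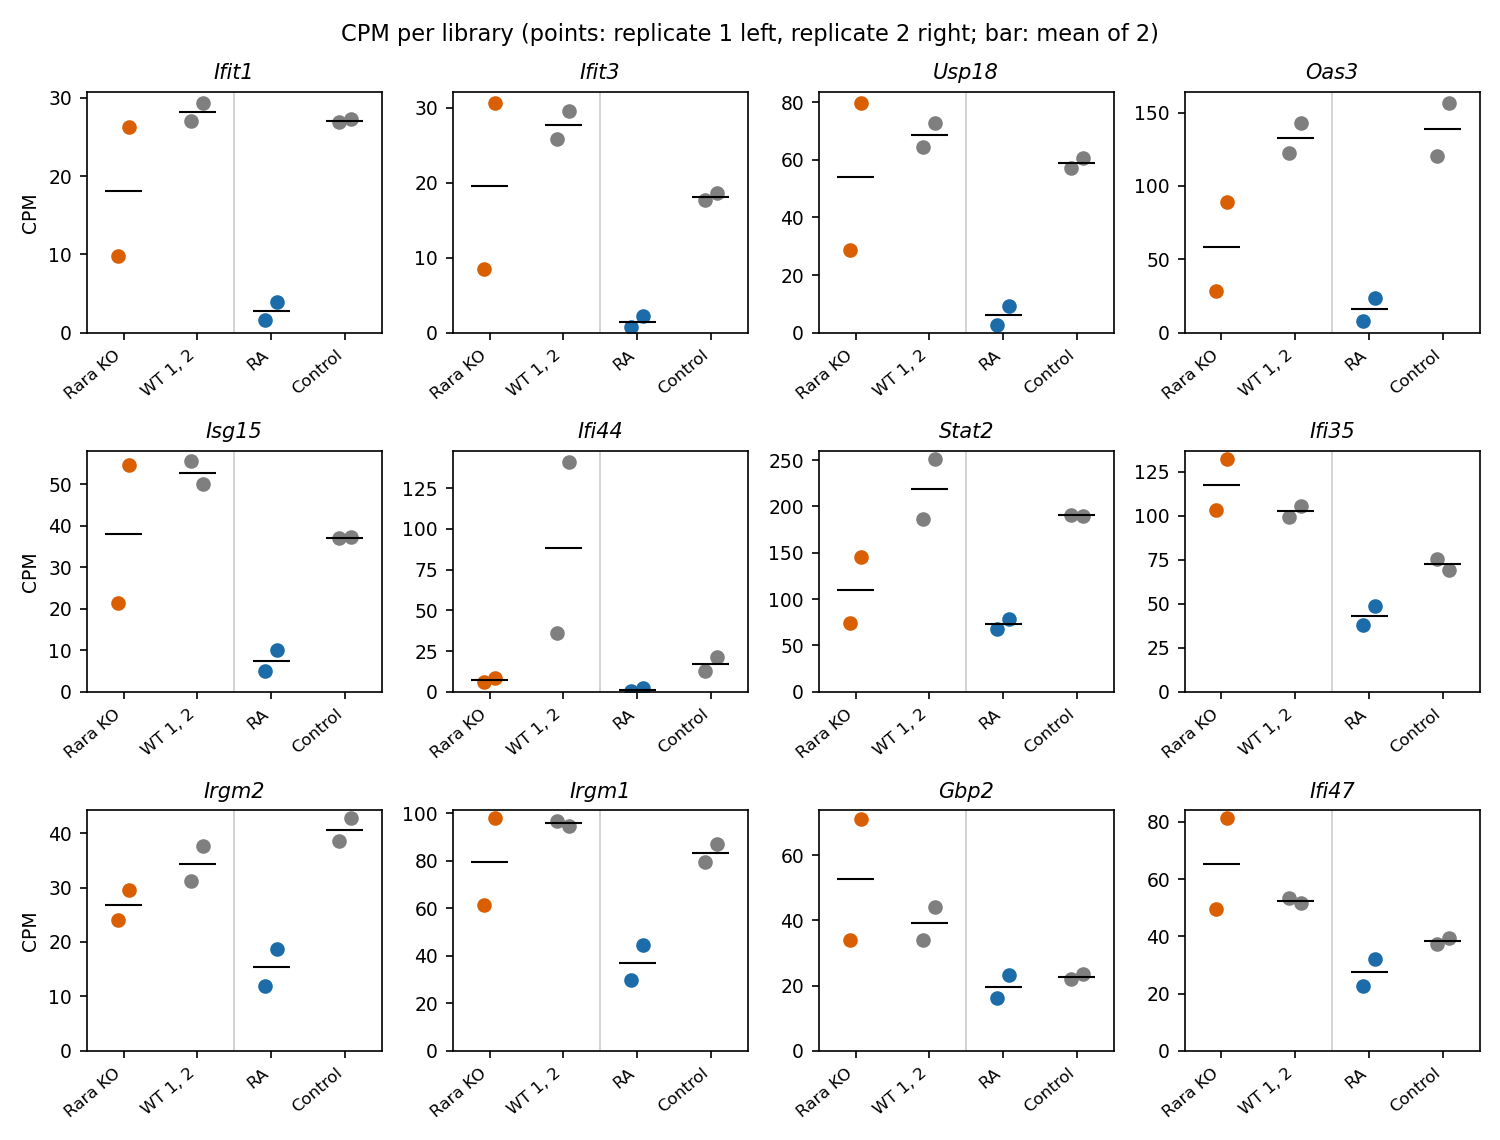
CPM of 12 genes in each library, on linear axes that start at 0, with points for the libraries and bars for the mean of 2. RA points lie below Control points in 11 panels and overlap them for Gbp2, while Rara KO 1 and Rara KO 2 often lie far apart, as for Oas3 (28.3 and 89.1 CPM).

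Genes fell with RA both with and without the ISRE core. Among antiviral genes with the core in the promoter window 11 of 13 fell with RA, with a median of -1.39, and among those without it 10 of 11 fell, with a median of -1.96. Among the 10 antiviral genes with no promoter entry 7 fell. Of the 5 GTPases with the core 3 fell, with a median of -0.98. Gbp2 and Ifit1 carried the same core letters in the windows shown above and had log2 fold changes of -0.20 and -3.28. Their promoters were not alike in number of cores, with 2 matches for Ifit1, of which the window shows 1, and 1 for Gbp2.

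**Figure D3:**
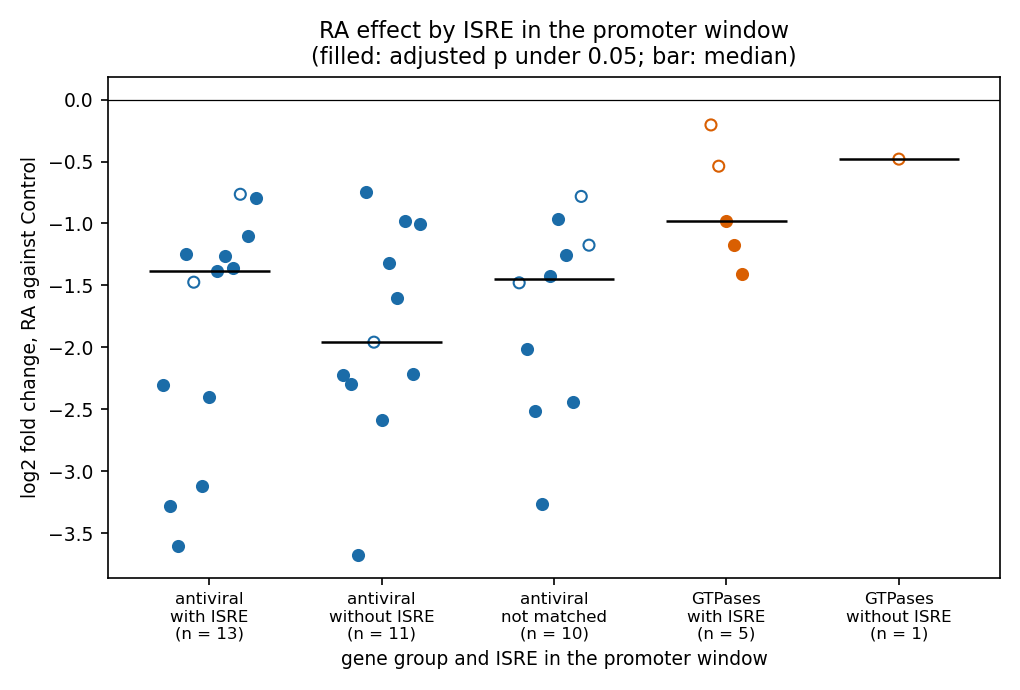
Log2 fold change of RA against Control for each gene, by gene group and by whether the ISRE core stands in the promoter window, with filled points for adjusted p under 0.05 and bars for medians. The antiviral genes with and without the core spread over the same range, and the GTPases lie between -1.40 and -0.20.

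Marker genes of cell types also changed with RA. Of 9 marker genes of plasmacytoid dendritic cells, which make type I interferon and express Bst2 and Irf7, 7 were tested, and 5 of these fell, among them Siglech, with 3.87 and 6.28 CPM in RA cells against 21.4 and 59.7 CPM in Control cells (7.99-fold lower, adjusted p = 0.00348). Values were negative for 6 of the 7 and positive for 1 (0.69, not called). The summed level of the list was 79.4 to 89.7 CPM in RA libraries against 109 to 218 CPM in Control libraries. Of 8 neutrophil markers 7 were tested and 2 fell, and their sum was 172 to 213 CPM in RA libraries against 841 to 1181 CPM in Control libraries. The 6 markers of CD11c+ dendritic cells summed to 1945 to 2609 CPM in RA libraries against 21988 to 23791 CPM in Control libraries, with 5 of 6 lower and 1 higher. Most of that sum was the MHC class II genes Cd74 (1082 and 1551 CPM in RA cells, against 14546 and 13606 CPM in Control cells) and H2-Ab1, while Itgax fell 2.06-fold and Batf3 rose 2.17-fold. The part of these cells in the lower interferon-stimulated genes was not tested. Without RA 1 the count of genes that fell was 13, all among the 31, and without Control 2 it was 18. Irgm1, Irgm2, Igtp, Isg15, Ifit1, Ifit3, Oas3 and Usp18 were among those that passed in both.

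With loss of RARα fewer of the genes were called. Of the 40 genes 2 fell in ∆Rara CD11c cells and none rose, where 13.3% of all genes tested fell and 13.6% rose. Without adjustment 5 were lower and 0 higher, and DESeq2 called 4 lower and 0 higher. The 40 genes had a median log2 fold change of -0.45, against 0.00 over all genes tested. Both ∆Rara CD11c libraries were below both WT libraries for 16 of the 40 genes, as for 33% of all genes tested.

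Ifi44 and Stat2 were the genes that fell. Ifi44 had 6.28 and 8.72 CPM in ∆Rara CD11c cells, against 36.2 and 141 CPM in WT 1 and WT 2 (log2 fold change -3.56, SE 0.73, adjusted p = 0.0119). The Control libraries, at 12.8 and 21.6 CPM, lay below WT 1, and with all 4 wild type libraries as controls the value was -2.81 (adjusted p = 0.0672). Without WT 2 it was -2.26 (adjusted p = 0.0709) and without Rara KO 1 -3.40 (adjusted p = 0.0602), so the call rests on each of these libraries. Stat2 had 74.5 and 145 CPM in ∆Rara CD11c cells, against 187 and 251 CPM in WT 1 and WT 2 (-0.99, SE 0.28, adjusted p = 0.0334). Both ∆Rara CD11c libraries were below all 4 wild type libraries for Stat2, yet the call was lost without WT 2 (-0.76, adjusted p = 0.179), without Rara KO 1 (-0.64, adjusted p = 0.0599) and without either Control library.

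The replicate ∆Rara CD11c libraries differed widely from each other. For all 40 genes Rara KO 1 was below Rara KO 2, as for 51.4% of all genes tested, and the ratio of Rara KO 2 to Rara KO 1 was between 1.24 and 5.55 with a median of 2.08. Rara KO 1 was below both WT libraries for 38 of the 40 genes (44.6% of all genes tested), whereas Rara KO 2 was below both for 16, above both for 20 and between them for 4. The median of the 34 antiviral genes was -1.31 in Rara KO 1 and 0.01 in Rara KO 2, as log2 differences from the mean of WT 1 and WT 2. Ifit1 was an example, with 9.77 and 26.3 CPM in ∆Rara CD11c cells against 27.1 and 29.3 CPM in WT 1 and WT 2, so that the second library nearly reached WT. Usp18 had 28.6 and 79.6 CPM in ∆Rara CD11c cells against 64.5 and 72.8 CPM in WT 1 and WT 2, and Isg15 had 21.3 and 54.5 CPM against 55.5 and 50.1 CPM. Without Rara KO 2 the fit called 20 of the 40 genes lower, and without Rara KO 1 it called 0, so the count depends on which of them is kept. The neutrophil markers summed to 2700 CPM in Rara KO 1 and 729 CPM in Rara KO 2, against 2549 CPM in WT 1 and 565 CPM in WT 2. The markers of mast cells, basophils and eosinophils summed to 118 CPM in Rara KO 1 and 57.2 CPM in Rara KO 2, against 23.3 CPM in WT 1 and 35.04 CPM in WT 2, with 1 of 4 tested markers higher. The plasmacytoid dendritic cell markers summed to 96.1 to 113 CPM in ∆Rara CD11c libraries against 84.7 to 94.4 CPM in WT libraries. Gene by gene, however, 5 of the 7 tested markers had negative log2 fold changes and 2 positive ones, with a median of -0.23. Of these 7, 1 was called lower and none higher. The part of these cells was not tested.

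The RA libraries showed the same order. RA 1 was below RA 2 for 39 of the 40 genes (53.4% of all genes tested), with a ratio of RA 2 to RA 1 of 0.852 to 5.04 and a median of 1.71. For the antiviral genes the median log2 difference from the Control mean was -2.05 in RA 1 and -1.16 in RA 2, both below 0. The wild type pairs were closer to each other, with WT 1 below WT 2 for 33 of the 40 genes and Control 1 below Control 2 for 34, against 50% and 49.7% of all genes tested. Across the 40 genes the ratio of Rara KO 2 to Rara KO 1 and that of RA 2 to RA 1 had a Pearson correlation of 0.53 (Spearman's rho 0.62) on the log2 scale, given as a description over genes that are not independent and share the TMM scaling of 1 table.

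None of the 6 GTPases changed in ∆Rara CD11c cells in the edgeR test, also without adjustment (0 lower, 0 higher) and by DESeq2 (0). Gbp2 had 34.01 and 71.1 CPM in ∆Rara CD11c cells, against 33.98 and 44.1 CPM in WT 1 and WT 2 (0.43, SE 0.32, adjusted p = 0.338). Without Rara KO 1 it was 0.81 (adjusted p = 0.0494), the single call of a GTPase when 1 library was left out, and without Rara KO 2 it was -0.25 (adjusted p = 0.453), so its direction turned with the library kept. Ifi47 had 49.5 and 81.2 CPM in ∆Rara CD11c cells, against 53.3 and 51.7 CPM in WT 1 and WT 2 (0.32, SE 0.23, adjusted p = 0.334). Gbp3 had 43.4 and 69.6 CPM in ∆Rara CD11c cells, against 51.5 and 53.2 CPM in WT 1 and WT 2 (0.11, SE 0.25, adjusted p = 0.758). In these 3 genes Rara KO 1 was near or below the WT libraries and Rara KO 2 was above both. Irgm1 had 61.2 and 97.9 CPM in ∆Rara CD11c cells, against 96.7 and 94.7 CPM in WT 1 and WT 2 (-0.26, SE 0.24, adjusted p = 0.433). Irgm2 had 24.0 and 29.6 CPM in ∆Rara CD11c cells, against 31.2 and 37.6 CPM in WT 1 and WT 2 (-0.36, SE 0.21, adjusted p = 0.235). Igtp had 26.1 and 34.01 CPM in ∆Rara CD11c cells, against 30.6 and 32.5 CPM in WT 1 and WT 2 (-0.07, SE 0.18, adjusted p = 0.794). Only Irgm2 of these 6 had both ∆Rara CD11c libraries below both WT libraries. The median of the 6 was 0.02, and its sign changed with the scaling, to -0.13 with library totals.

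**Figure D4:**
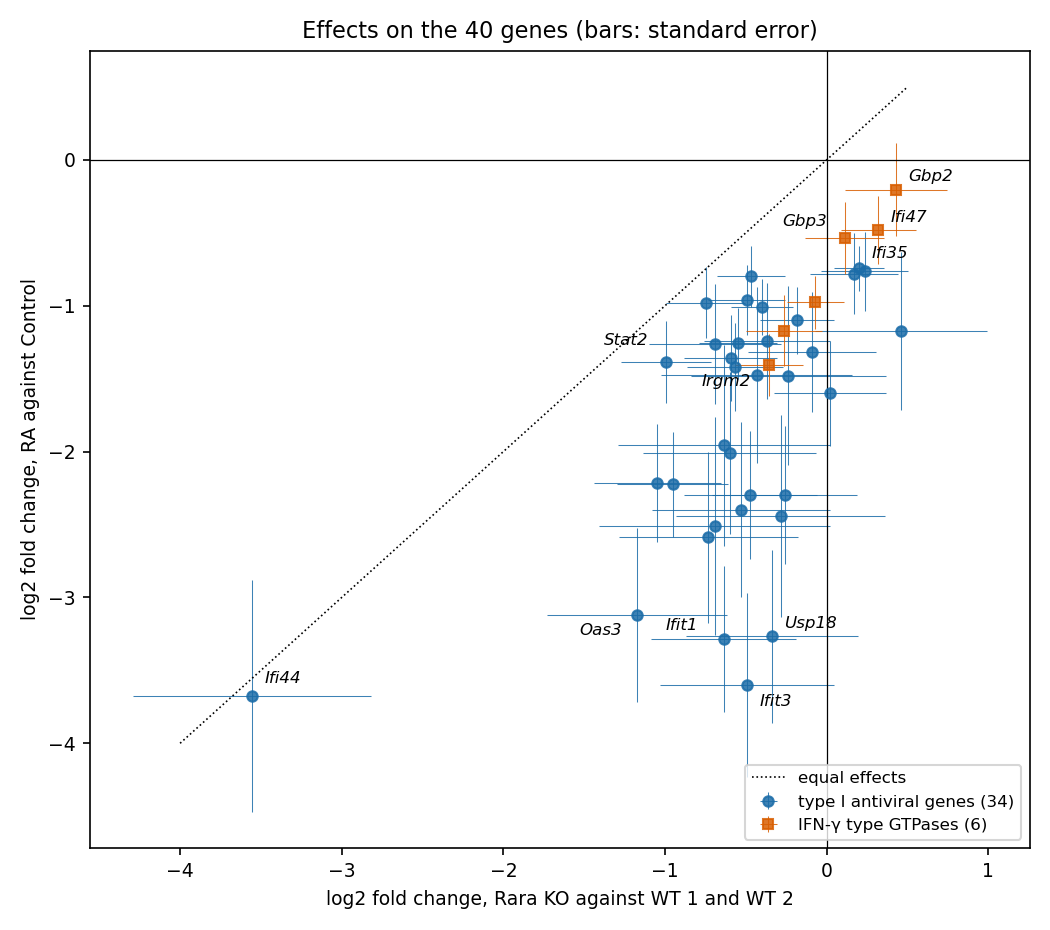
Log2 fold change of ∆Rara CD11c against WT 1 and WT 2 (horizontal) and of RA against Control (vertical) for the 40 genes, with standard errors as bars and a dotted line of equal effects. Every point lies below the dotted line, by the least for Ifi44, and 32 of the 40 points lie left of 0.

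The effect of RARα loss was less negative than that of RA for all 40 genes in value, with a median difference of 1.02 on the log2 scale against 0.03 over all genes tested. The difference itself passed the test for 1 gene, where 4.23% of all genes tested had a higher value in ∆Rara CD11c cells and 1.86% a lower one. That gene was Ifi35, which binds NMI and modulates the antiviral response. It had 103 and 132 CPM in ∆Rara CD11c cells, against 99.1 and 106 CPM in WT 1 and WT 2, and 37.8 and 48.5 CPM in RA cells, against 75.5 and 69.1 CPM in Control cells. The difference of the log2 fold changes was 0.94 (SE 0.22, adjusted p = 0.045), and it was not called without 6 of the 8 libraries, each left out in turn. Without adjustment 19 genes were higher and 0 lower, and DESeq2 called 9 higher and 0 lower. With the 4 wild type libraries as a single control group 24 genes were called, but there the shared controls cancel out of the difference. That setting sets ∆Rara CD11c libraries directly against RA libraries, so genotype, treatment and experiment cannot be told apart in it. Ifit1 (2.65, adjusted p = 0.0572), Ifit3 (3.11, adjusted p = 0.0643) and Usp18 (2.93, adjusted p = 0.0678) had the highest differences. Over the 40 genes the effects of RARα loss and of RA, which share no library, had a Pearson correlation of 0.61 (Spearman's rho 0.60), a description over genes.

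Genes upstream of the set were read from lists of the same pathway. The listed interferon genes had few or no counts: of 10 ligand genes none reached the level for testing and 6 were at 0 in all 8 libraries. Pairs mapping equally well to several genes were left out of the counts here too. Ifnb1, the gene of IFN-β, had 2 counts over both ∆Rara CD11c libraries (0 and 0.065 CPM) against 26 over the deeper WT pair (0.343 and 0.147 CPM). It had 0 counts over the RA libraries, which allows up to 0.0291 CPM, against 7 over the Control libraries. Of 9 receptor and JAK genes 3 fell with RA and none rose, where 19.3% of all genes tested fell and 15.2% rose. The 3 genes were Jak2 (-1.66, adjusted p = 0.000795), Tyk2 (-0.69, adjusted p = 0.00235) and Ifnar1 (-0.58, adjusted p = 0.00343), with Ifnar1 at 79.7 and 93.8 CPM in RA cells against 126 and 134 CPM in Control cells. In ∆Rara CD11c cells 3 of the 9 fell and 1 rose, where 13.3% of all genes tested fell and 13.6% rose. Jak2 (-0.84, adjusted p = 0.0225) and Tyk2 (-0.79, adjusted p = 0.00349) were among the 3.

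Among the transcription factor genes, Irf7, the master regulator of interferon production, and Irf9, the partner of STAT2, fell with RA. Irf7 had 8.10 and 18.04 CPM in RA cells, against 69.5 and 109 CPM in Control cells (-2.77, SE 0.65, adjusted p = 0.0129). Irf9 had 38.2 and 56.3 CPM in RA cells, against 93.1 and 98.9 CPM in Control cells (-1.02, SE 0.21, adjusted p = 0.00675). Both showed RA 1 below RA 2, as the antiviral genes did. In ∆Rara CD11c cells Irf1, which drives many IFN-γ targets, rose (0.43, adjusted p = 0.022), while Irf7 had 29.2 and 124 CPM against 102 and 138 CPM in WT 1 and WT 2 (-0.64, adjusted p = 0.456).

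Sensors and adaptors moved both ways with RA, 2 of 12 lower and 3 higher, where 19.3% of all genes tested fell and 15.2% rose. Ikbke, a kinase that activates IRF3 and IRF7, had 151 and 140.3 CPM in RA cells, against 17.9 and 22.5 CPM in Control cells (2.85, SE 0.15, adjusted p = 1.31e-05). It had 57.5 and 64.5 CPM in ∆Rara CD11c cells, against 22.8 and 19.2 CPM in WT 1 and WT 2 (1.54, SE 0.14, adjusted p = 0.00125). Unc93b1, which carries Toll-like receptors to endosomes, rose in both as well, by 1.38 with RA and 1.23 in ∆Rara CD11c cells. In ∆Rara CD11c cells 2 of the 12 were lower and 2 higher, where 13.3% of all genes tested fell and 13.6% rose. The lower ones were the same in both comparisons: Tlr9, a sensor of unmethylated DNA, had log2 fold changes of -2.05 with RA (adjusted p = 0.0148) and -2.10 without RARα (adjusted p = 0.0222), and the adaptor gene Ticam1 fell by 0.59 (adjusted p = 0.00811) and 0.43 (adjusted p = 0.0373). Of 9 genes that restrain the pathway 4 fell with RA and 2 rose, with Socs1, the inhibitor of JAK kinases, at 8.32 and 13.0 CPM in RA cells against 33.1 and 42.4 CPM in Control cells (-1.82, adjusted p = 0.00104).

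Most interferon-stimulated genes outside the 40 also had lower values with RA. Of 42 listed 41 were tested, and 20 fell with RA and none rose, with a median of -1.01. Over all genes tested 19.3% fell and 15.2% rose with RA, and 13.3% fell and 13.6% rose in ∆Rara CD11c cells. Ifi205 had the most negative value (-4.33, adjusted p = 0.000406), and Slfn5 had 9.70 and 32.9 CPM in RA cells against 161 and 222 CPM in Control cells (-3.17, adjusted p = 0.00519). In ∆Rara CD11c cells 5 of the 41 fell and 1 rose, with a median of -0.11, and 17 of the 41 had positive values. The gene that rose was Ifitm1, whose product blocks virus entry, at 342 and 544 CPM in ∆Rara CD11c cells against 122 and 154 CPM in WT 1 and WT 2 (1.68, adjusted p = 0.022). Of 9 further GTPases of the IFN-γ type 2 fell with RA, Gbp5 (-2.13, adjusted p = 0.00125) and Gbp7 (-1.11, adjusted p = 0.0043), and Gbp11, at 0.802 and 1.07 CPM in RA cells against 0.138 and 0.266 CPM in Control cells, rose (2.20, adjusted p = 0.0432). Of 8 tested IFN-γ targets that are not GTPases 5 fell with RA and 1, Nos2, rose. Ciita, the switch for MHC class II genes, had 16.9 and 28.8 CPM in RA cells, against 401 and 422 CPM in Control cells (-4.17, SE 0.28, adjusted p = 3.81e-05). Cxcl10, a chemokine for T cells, had 1.42 and 3.24 CPM in RA cells, against 18.03 and 14.1 CPM in Control cells (-2.78, SE 0.39, adjusted p = 0.0012).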

How the data were processed

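RNA-seq libraries of CD11c+ LC-like cells were made with a stranded mRNA kit and sequenced as read pairs. The authors mapped the pairs to mm10 with STAR and assigned uniquely mapped pairs to refGene genes with featureCounts, using strand, so the deposited values are raw counts per gene. The authors' deposited mapping summary gives further numbers per library, of which the 3′ UTR share was used. The deposited RPKM values, fold changes and p-values of the authors' own comparisons were not used. The authors' tool versions: not given in the sources used here. Columns were assigned to groups by name, and the 2 Control columns as a pair to WT.

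In R 4.3.3, counts were fitted with edgeR 4.0.16 (TMM factors, glmQLFit, glmQLFTest, 4 groups, all 8 libraries, 4 residual degrees of freedom), and p-values were adjusted by Benjamini-Hochberg across the 12424 genes reaching 0.5 CPM in 2 or more libraries. Calls are at 0.05. The standard error is the size of the log2 fold change over the root of F. CPM uses TMM library sizes and RPKM adds exon length from the table. The fit was tested on simulated data. Library values are given for called members, up to 12 per comparison with the highest absolute log2 fold change, and for all 6 GTPases. Other genes are given by counts and ranges, with up to 4 named per pathway list, and the examples Ifit1, Usp18, Isg15, Oas3, Siglech, Irf7 and the RA values of uncalled members were chosen after their values were seen. Of the pathway lists, 1 gene is not reported here. The members and all lists were chosen with earlier results of these data known. DESeq2 1.42.0 and the other settings are described in the closing section.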

Additional observations from a re-analysis of the deposited data

Results flagged for a closer look

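Stat2 in WT 2 stood apart from the other wild type libraries, with 251 CPM against 187 to 191 CPM in WT 1 and the Control libraries. The gap was 0.94 of the whole range of the 4 libraries, and 1 of the 40 genes was flagged in this way, where chance flags about 1 in 20 groups. WT 2 is a control of the ∆Rara CD11c comparison, and without it Stat2 was no longer called there (edgeR's quasi-likelihood test, adjusted p = 0.179).

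Ifi35 responded differently to RARα loss and to RA, by 0.94 on the log2 scale (edgeR's quasi-likelihood test of the difference, adjusted p = 0.045). The difference was positive in every alternative run, and its adjusted p was over 0.05 in 8 of them.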

How the results depend on the processing

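No called value changed sign, and the cause of each change below was not tested. In ∆Rara CD11c cells the count of members that fell, 2, became 5 with all 4 wild type libraries as controls, 1 with the 4 libraries of the experiment alone, 4 with DESeq2, 5 with library totals, 5 without the low-count filter, and 0 and 5 at thresholds of 0.01 and 0.1. It ranged over 0 to 20 when 1 library was left out, with 0 without WT 2 or Rara KO 1, 20 without Rara KO 2, and 1 without either Control library. With RA the count, 31, became 19 at the threshold of 0.01 and ranged over 13 to 38 when 1 library was left out, with 13 without RA 1 and 18 without Control 2. For the difference the count, 1, became 24 with pooled controls, 9 with DESeq2, 0 with library totals, 8 without the filter, 0 and 7 at thresholds of 0.01 and 0.1, and 0 to 11 when 1 library was left out. With pooled controls the difference sets ∆Rara CD11c libraries directly against RA libraries of the other experiment. No source says that the replicate numbers pair the samples, so the numbers were not taken as pairs. The deviations of same-numbered libraries correlated at 0.28 between WT and ∆Rara CD11c cells and at 0.27 between RA and Control cells. Between groups of different experiments the correlations were -0.01 to 0.15. Whether the numbers pair libraries within an experiment was not tested. With a replicate block the counts were 12 for ∆Rara CD11c cells (1885 over all genes), 38 with RA and 12 for the difference, or 8, 37 and 11 with the length trend removed as well. That block was a single term shared by the WT, ∆Rara CD11c and RA libraries, with no replicate number for the Control libraries. It therefore did not pair RA with Control libraries. With library totals the median of all genes was -0.14 in ∆Rara CD11c cells, against 0.00, which turned the calls over all genes into 2770 lower and 979 higher, against 1658 and 1688, and with a length trend removed it was 0.17 with RA, against -0.01, with 1824 lower and 3298 higher, against 2397 and 1894. Over the alternatives all-gene counts ranged over 474 to 2770 lower and 507 to 2406 higher in ∆Rara CD11c cells, 1395 to 2956 and 760 to 3639 with RA, and 18 to 1505 and 109 to 2083 for the difference. The median of the 40 genes stayed between -1.86 and -1.10 with RA and between -1.20 and -0.01 in ∆Rara CD11c cells. With 2 libraries per group and 4 residual degrees of freedom, members at a few CPM and those with unlike replicates could miss the threshold.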
